A study of Mus musculus with 6 samples.

Results

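The genes described here carry glucose to lactate or into the mitochondrion: 39 genes of glucose uptake, glycolysis, lactate export and pyruvate entry, taken by name from a table of 49671 genes and all found there. They were read in RNA from pancreata of C57BL/6J mouse embryos at 14.5 dpc (days post coitum). There were 3 libraries of pancreata treated with 10 µM AMI-5, a small-molecule inhibitor of protein methyltransferases that include arginine methyltransferases, and 3 libraries of control pancreata of the same strain and stage. No genetic change is listed in either group, and the labels do not say what the control pancreata received. The comparison addressed the effect of AMI-5 on differentiation of the pancreas. Whether the 3 libraries of a group stem from separate embryos or cultures is not stated in the labels, so p-values speak only to the variation among the libraries at hand, part of which could be technical.

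Glycolysis splits glucose into pyruvate in the cytosol. Pyruvate is then either reduced to lactate, which leaves the cell through proton-linked transporters, or carried into mitochondria, where the pyruvate dehydrogenase complex turns it into acetyl-CoA. Most steps are run by isozymes from separate genes with different tissue preferences, and several of these genes are classical targets of hypoxia-inducible factors. In the developing pancreas, glucose metabolism is known to influence the formation of endocrine cells.

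The libraries held 22894312 to 24805188 counts in the AMI-5 group and 12445425 to 13321899 in the control group, and low levels are accordingly better resolved in the treated group. Where reads are given in place of CPM, they are not scaled for this difference in depth. The glycolytic genes took 0.328% to 0.407% of counts in AMI-5 libraries and 0.306% to 0.313% in control libraries. Processed pseudogenes, which are reverse-transcribed copies of mRNAs in the genome, took 3.14% to 3.40% of counts in AMI-5 libraries and 0.427% to 0.448% in control libraries. Glycolytic genes have many such copies, and this difference therefore stands beside several results below. The labels name an earlier version of the library kit for samples marked A, a mark that the control titles carry and the AMI-5 titles do not in that form. Read literally, kit version and treatment cannot be told apart. Defining pancreatic markers were present in both groups, and the summed level of 8 acinar markers was 123080 to 152690 CPM (read counts scaled to a common library size by edgeR's TMM method) in AMI-5 libraries and 54159 to 75241 CPM in control libraries. Of these 8, 4 were higher with AMI-5 and none lower, and Ctrb1 and Pnliprp1 made up most of the sum in both groups. Of 7 markers of progenitors and ducts, 5 were lower and none higher, at a sum of 1400 to 1523 CPM in AMI-5 and 1630 to 1834 CPM in control libraries. Of 6 leukocyte markers, 4 were higher and none lower, at a sum of 205 to 238 CPM in AMI-5 and 145 to 171 CPM in control libraries. In bulk tissue, fewer cells of a type and less RNA per cell cannot be told apart, and the part of cell composition in the results below was not tested.

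Glycolytic genes were more often higher than lower with AMI-5. Of the 39 genes, 22 were higher and 6 lower at an adjusted p under 0.05 (edgeR quasi-likelihood test, Benjamini-Hochberg over all genes tested), and 11 did not pass. Of all 17519 genes tested, 54.1% passed in either direction, 27.5% as higher and 26.6% as lower with the compound, against 56.4% and 15.4% of the glycolytic genes. The median log2 fold change (AMI-5 over control) was 0.36 over the 39 genes and -0.0013 over all genes. In 24 of the genes every AMI-5 library lay above every control library, and in 7 every AMI-5 library lay below, where the same was true of 31.3% and 30.6% of all genes tested. All 39 passed the filter on low counts. With library totals as the only scaling, 20 of the glycolytic genes were higher and 8 lower, and 40.2% of the calls over all genes were higher ones, against 50.9% with TMM.

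Because reads of a gene and of its near copies can be exchanged in counting, the genes were split by the percent of their exonic 50-base words that also occur in another annotated gene on the sense strand. In 25 genes this share was under 5%. Of these, 16 were higher with AMI-5 and 2 were lower, Pgam2 and Pklr, while 19.1% of all protein-coding genes with under 5% sharing were higher and 31% lower. Fitted on such genes alone, 2984 of 12978 were higher and 3262 lower, with 18 of the 25 higher and 2 lower. Low sharing does not exclude copies. The 16 include Aldoart2, itself a copy of Aldoa, and Tpi1. Processed copies held 8.01% to 8.32% of the reads of Tpi1 and copies in AMI-5 and 0.219% to 0.498% in control libraries. Among the 14 genes with more sharing, 6 were higher and 4 lower, and those 4 (Gapdh, Pkm, Ldhb and Pdhb) were not called once the reads of their processed copies were added.

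**Figure D1:**
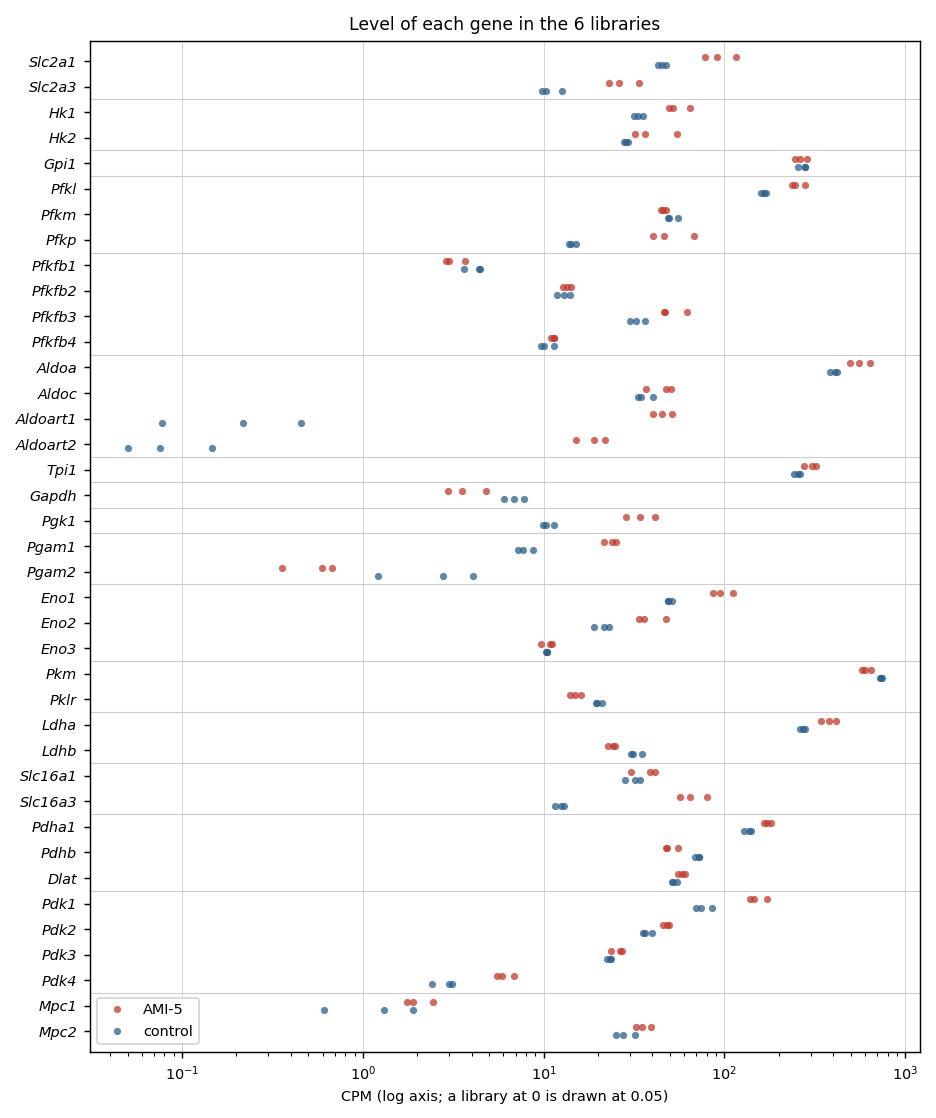
Level of each of the 39 genes in each library, in CPM on a log axis, with AMI-5 libraries in red above control libraries in blue and genes ordered by step from glucose uptake to pyruvate entry; a level of 0 is drawn at 0.05. Slc16a3, Pfkp, Pgk1 and both aldolase retrogenes show red points far to the right of blue ones, while Gapdh, Pkm, Ldhb and Pdhb show them to the left.

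At the ends of the pathway, where glucose enters and lactate leaves, Slc2a1, Slc2a3 and Slc16a3 were higher with AMI-5. Slc2a1 encodes GLUT1, the widespread glucose transporter. It reached 91.3, 115 and 78.2 CPM in AMI-5 libraries, against 43.1, 47.7 and 45.2 CPM in control libraries. Every AMI-5 library was above every control, with a log2 fold change of 1.07 ± 0.14 (SE, edgeR adjusted p = 0.000518). Slc2a3, which encodes the high-affinity transporter GLUT3, had 26.0, 33.5 and 22.9 CPM in AMI-5 libraries and 9.84, 10.3 and 12.6 CPM in control libraries. The groups again lay apart, by 1.33 ± 0.15 on the log2 scale (SE, edgeR adjusted p = 4.84e-05). Per kilobase of exon, the level of Slc2a1 was 27.1 CPM in AMI-5 and 12.9 CPM in control pancreata, and that of Slc2a3 was 3.79 CPM in AMI-5 and 1.51 CPM in control pancreata, so Slc2a1 was the more abundant of the pair in both groups.

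Of the lactate transporters, Slc16a3 was higher with AMI-5 and Slc16a1 did not pass. Slc16a3 encodes MCT4, the low-affinity transporter typical of cells that export lactate, and lies on chromosome 11 (120948480 to 120960868, mm10). Its level was 64.9, 80.4 and 56.6 CPM in AMI-5 libraries, against 11.5, 13.0 and 12.5 CPM in control libraries. The groups lay far apart, and the log2 fold change was 2.44 ± 0.14 (SE, edgeR adjusted p = 4.77e-07). Slc16a1 encodes MCT1, which carries lactate in either direction, and had 38.7, 41.2 and 30.6 CPM in AMI-5 libraries and 32.0, 34.2 and 28.3 CPM in control libraries. Those groups overlapped, and the log2 fold change of 0.22 ± 0.11 (SE, edgeR adjusted p = 0.125) did not pass, although it did without AMI-5 replicate 3 (0.36). Summed per kilobase, the level of both lactate transporters was 20.97 ± 3.43 CPM in AMI-5 and 9.44 ± 0.711 CPM in control pancreata (SD, n = 3 each).

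The promoters of genes at these points and at later steps are shown because hypoxia-inducible factors bind the core ACGTG or GCGTG, and the data bear on genes known as their targets. The genes shown were picked by name, and all of them were higher with AMI-5 and held a match. Each line gives the 200 bases before the RefSeq start, 5′ to 3′ on the gene's strand, from RefSeq's table for build GRCm38.p6, with the core ACGTG or GCGTG, or its reverse complement CACGT or CACGC, in capitals.
Slc16a3 promoter, chr11:120948867-120949066, plus strand: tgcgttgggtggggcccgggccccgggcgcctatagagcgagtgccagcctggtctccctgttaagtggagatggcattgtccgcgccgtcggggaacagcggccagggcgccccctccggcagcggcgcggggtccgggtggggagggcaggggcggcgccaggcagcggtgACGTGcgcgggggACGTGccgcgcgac
Slc2a1 promoter, chr4:119108545-119108744, plus strand: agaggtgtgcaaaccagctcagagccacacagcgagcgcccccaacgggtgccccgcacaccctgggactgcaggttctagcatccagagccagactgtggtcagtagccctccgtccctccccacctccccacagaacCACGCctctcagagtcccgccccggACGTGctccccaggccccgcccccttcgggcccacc
Pfkp promoter, chr13:6648772-6648971, minus strand: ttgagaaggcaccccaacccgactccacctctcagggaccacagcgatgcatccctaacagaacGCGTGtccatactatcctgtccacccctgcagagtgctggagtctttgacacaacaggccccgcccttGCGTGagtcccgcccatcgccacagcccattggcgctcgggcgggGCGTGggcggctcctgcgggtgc
Pdk1 promoter, chr2:71873024-71873223, plus strand: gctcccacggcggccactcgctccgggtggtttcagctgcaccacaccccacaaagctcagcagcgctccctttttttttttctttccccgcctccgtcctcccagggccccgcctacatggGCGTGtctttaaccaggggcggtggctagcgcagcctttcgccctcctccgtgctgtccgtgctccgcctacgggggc
Ldha promoter, chr7:46845604-46845803, plus strand: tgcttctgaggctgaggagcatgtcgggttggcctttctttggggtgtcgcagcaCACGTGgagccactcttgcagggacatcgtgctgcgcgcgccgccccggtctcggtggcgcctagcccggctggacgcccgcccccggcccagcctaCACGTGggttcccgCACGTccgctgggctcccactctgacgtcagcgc
These windows held 2 matches in Slc16a3, 2 in Slc2a1, 3 in Pfkp, 1 in Pdk1 and 5 in Ldha, counting both strands and overlaps, so that CACGTG counts as a pair. Over the whole window of 250 bases before and 50 after the start, a match was found in 28 of the 37 glycolytic genes with a promoter in the table; Slc2a3 and Aldoart1 had none in it. The promoter held a match in 16 of 20 genes that were higher with AMI-5 and in 9 of 11 that did not pass. Among those that were lower it was 3 of 6. Hk1, Aldoa, Tpi1 and Eno2 were higher with AMI-5 and held no match. Of all tested protein-coding genes with a promoter in the table, 61.4% held a match, and 9524 of all 19780 promoters did. A match describes the letters and says nothing of binding.

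In the committing steps of glycolysis, Hk1, Pfkl, Pfkp and Pfkfb3 were higher with AMI-5. Hk1, a widespread hexokinase that phosphorylates incoming glucose, averaged 55.3 ± 8.11 CPM in AMI-5 and 33.3 ± 1.82 CPM in control libraries (SD, n = 3 each), with a log2 fold change of 0.73 ± 0.10 (SE, edgeR adjusted p = 0.000127). Hk2, the insulin-regulated hexokinase of muscle and fat, had 36.3, 54.9 and 31.8 CPM in AMI-5 libraries and 27.8, 29.2 and 28.6 CPM in control libraries. The groups did not overlap, but AMI-5 replicate 2 stood well above the other treated libraries, and the log2 fold change of 0.52 ± 0.22 did not pass (SE, edgeR adjusted p = 0.0934). It did pass at 0.28 without AMI-5 replicate 2 and at 0.69 without AMI-5 replicate 3. Gpi1, the isomerase that converts glucose phosphate to fructose phosphate, had 260.5, 287 and 245 CPM in AMI-5 libraries and 279, 279 and 255 CPM in control libraries, which overlap, and its log2 fold change of -0.04 turned positive under several alternatives.

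Phosphofructokinase catalyses the main regulated step and is built from liver (Pfkl), muscle (Pfkm) and platelet (Pfkp) subunits. Pfkp, on chromosome 13 (6579768 to 6648777, mm10), had 46.2, 67.6 and 40.04 CPM in AMI-5 libraries, against 13.8, 14.2 and 15.2 CPM in control libraries. All AMI-5 libraries lay far above the controls, at a log2 fold change of 1.83 ± 0.22 (SE, edgeR adjusted p = 0.000689). Pfkl, the most abundant subunit per kilobase, had 246, 279 and 235 CPM in AMI-5 libraries and 169.8, 165 and 159.6 CPM in control libraries, a log2 fold change of 0.62 ± 0.07 (SE, edgeR adjusted p = 1.17e-05). Pfkm ran the other way, with 45.9 ± 1.43 CPM in AMI-5 and 51.0 ± 3.62 CPM in control libraries (SD, n = 3 each) and no overlap, but its log2 fold change of -0.15 ± 0.07 did not pass (SE, edgeR adjusted p = 0.0724).

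Among the Pfkfb enzymes, which make and break the sugar phosphate that activates phosphofructokinase, Pfkfb3 alone passed the test. It is known for its high ratio of kinase to phosphatase activity. Pfkfb3 had 47.2, 62.4 and 46.3 CPM in AMI-5 libraries, against 29.99, 32.3 and 36.2 CPM in control libraries. The log2 fold change was 0.66 ± 0.13 (SE, edgeR adjusted p = 0.00197). Pfkfb1, Pfkfb2 and Pfkfb4 had log2 fold changes of -0.39, 0.05 (-0.04 with library totals as the only scaling) and 0.12, and none of these passed; whether they differ from Pfkfb3 was not tested directly.

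Aldolase splits the fructose bisphosphate into triose phosphates. Aldoa, its main form here, had 553, 638 and 496 CPM in AMI-5 libraries and 407, 418 and 386 CPM in control libraries, with a log2 fold change of 0.48 ± 0.08 (SE, edgeR adjusted p = 0.000635). Aldoc, the brain form, averaged 45.04 ± 7.12 CPM in AMI-5 and 36.0 ± 3.63 CPM in control libraries (SD, n = 3 each). Its groups overlapped, and the log2 fold change of 0.32 ± 0.12 was just past the threshold (SE, edgeR adjusted p = 0.049). It was not past it without AMI-5 replicate 1 (0.29), AMI-5 replicate 2 (0.26), control replicate 2 (0.29) or control replicate 3 (0.27).

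The aldolase retrogenes Aldoart1 and Aldoart2, intronless copies of Aldoa known for expression in the male germ line, had reads almost only in AMI-5 libraries. Aldoart1 lies on chromosome 4 (72850583 to 72852634, mm10) and had 1005, 1153 and 949 reads in AMI-5 libraries, against 1, 3 and 6 reads in control libraries. Aldoart2 lies on chromosome 12 (55565239 to 55566896, mm10) and had 422, 493 and 358 reads in AMI-5 libraries, against 0, 2 and 1 reads in control libraries. Scaled to depth, the rate of Aldoart1 reads was 181 times that of the controls, with a 95% exact binomial (Clopper-Pearson) interval of 98.2 to 378. For Aldoart2 the ratio was 247, with an interval of 84.3 to 1199, where both intervals cover counting error only. Both genes passed the edgeR test (adjusted p = 5.34e-10 for Aldoart1 and 5.6e-09 for Aldoart2).

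Set against Aldoa in the same library, Aldoart1 had 8.05% to 8.15% as many reads in AMI-5 libraries and 0.0190% to 0.118% in control libraries. The coding sequence of Aldoart1 was identical to that of Aldoa at 94.25% of 1095 aligned bases, and that of Aldoart2 at 91.6%, while Aldoa and Aldoc were identical at 75.64%. Markers of late male germ cells were almost absent in both groups. Tnp1, Prm1, Prm2, Odf1 and Akap4 together had 1 read in all AMI-5 libraries and 2 in all control libraries. Of these 5, 3 had none. Markers of earlier germ cells were not examined, and the source of the retrogene reads was not tested.

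The middle steps, from triose phosphates to phosphoenolpyruvate, were higher with AMI-5 in most genes, with Gapdh and Pgam2 lower. Tpi1, which interconverts the triose phosphates, had 305, 321 and 276 CPM in AMI-5 libraries and 263, 255 and 242 CPM in control libraries. The log2 fold change was 0.25 ± 0.07 (SE, edgeR adjusted p = 0.00773), and 0.15 with library totals as the only scaling, where it did not pass (edgeR adjusted p = 0.0727).

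Gapdh, the dehydrogenase that yields the first reduced cofactor of the pathway, lies on chromosome 6 (125161715 to 125166467, mm10) and is usually a very abundant mRNA. Here it was listed with 79, 108 and 70 reads in AMI-5 libraries and 78, 107 and 91 reads in control libraries. That corresponds to 3.54, 4.81 and 2.96 CPM in AMI-5 libraries, against 6.04, 7.80 and 6.90 CPM in control libraries. The groups lay apart, with a log2 fold change of -0.88 ± 0.20 (SE, edgeR adjusted p = 0.00263). Processed copies of Gapdh, 315 by alignment, held 96.4% to 97.3% of the reads of gene and copies together in AMI-5 libraries and 92.6% to 94.6% in control libraries. With those reads added, the log2 fold change of Gapdh was 0.15 and did not pass (edgeR adjusted p = 0.103).

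Pgk1, the kinase that makes the first ATP, is on the X chromosome (106187100 to 106203699, mm10). It had 34.3, 41.3 and 28.7 CPM in AMI-5 libraries, against 11.4, 9.91 and 10.3 CPM in control libraries, a log2 fold change of 1.72 ± 0.13 (SE, edgeR adjusted p = 1.54e-06). Its copies stood even further apart. Pgk1-rs7 on chromosome 12, identical to Pgk1 over its aligned length, had 702, 950 and 675 reads in AMI-5 libraries and 0 reads in each control library. Another copy with the same identity, Gm5537 on chromosome 3, had 634, 766 and 579 reads in AMI-5 libraries and 0, 1 and 0 reads in control libraries. With the reads of its copies added, the log2 fold change of Pgk1 was 3.22 (edgeR adjusted p = 5.22e-07). Pgk1 itself had 764, 927 and 680 reads in AMI-5 libraries and 147, 136 and 136 reads in control libraries. Reads from identical sequence cannot be assigned to the gene or a copy. The sources used here do not say how reads with several matching places were counted, or whether this was the same in both groups. The part of such counting in the values of 1.72 and 3.22 was not tested.

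Pgam1, the widespread phosphoglycerate mutase, had 23.96, 24.99 and 21.6 CPM in AMI-5 libraries and 7.21, 7.72 and 8.79 CPM in control libraries. Its log2 fold change was 1.57 ± 0.11 (SE, edgeR adjusted p = 1.8e-07). Pgam1 shares 36.2% of its 50-base words. A processed copy, Pgam1-ps2, is identical to Pgam1 over its aligned length. This copy had 155, 170 and 176 reads in AMI-5 libraries and 0, 2 and 0 reads in control libraries. With the reads of its copies added, Pgam1 stood at 1.95 (edgeR adjusted p = 3.35e-09). The part of the copies in the value of 1.57 was not tested. Pgam2, the muscle form, was lower, with 0.673, 0.356 and 0.591 CPM in AMI-5 libraries, against 2.79, 4.08 and 1.21 CPM in control libraries. Its log2 fold change of -2.31 ± 0.44 passed (SE, edgeR adjusted p = 0.00129), but the AMI-5 libraries held only 15, 8 and 14 of its reads. The summed level of 5 skeletal muscle markers was 1.39, 5.17 and 2.62 CPM in AMI-5 libraries, against 8.83, 4.59 and 18.04 CPM in control libraries. Of these markers, 3 could be tested, of which 1 was lower and none higher with AMI-5. The part of muscle cells in the Pgam2 result was not tested.

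Enolase forms phosphoenolpyruvate. Eno1, the widespread form, had 94.1, 111 and 86.4 CPM in AMI-5 libraries and 48.6, 51.3 and 49.0 CPM in control libraries, with a log2 fold change of 0.97 ± 0.09 (SE, edgeR adjusted p = 3.17e-06). Eno2, the form of neurons and endocrine cells, had 35.9, 47.4 and 33.9 CPM in AMI-5 libraries and 19.1, 21.6 and 23.0 CPM in control libraries. Both genes had groups well apart, and Eno2 had a log2 fold change of 0.88 ± 0.13 (SE, edgeR adjusted p = 0.000352). Eno3, the muscle form, averaged 10.6 ± 0.763 CPM in AMI-5 and 10.4 ± 0.0562 CPM in control libraries (SD, n = 3 each) and did not pass at 0.02 on the log2 scale, or -0.07 with library totals as the only scaling. Eno1b, a protein-coding near copy of Eno1 that shares 25.3% of Eno1's 50-base words, had 1101, 1274 and 1147 reads in AMI-5 libraries and 263, 306 and 268 reads in control libraries.

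**Figure D2:**
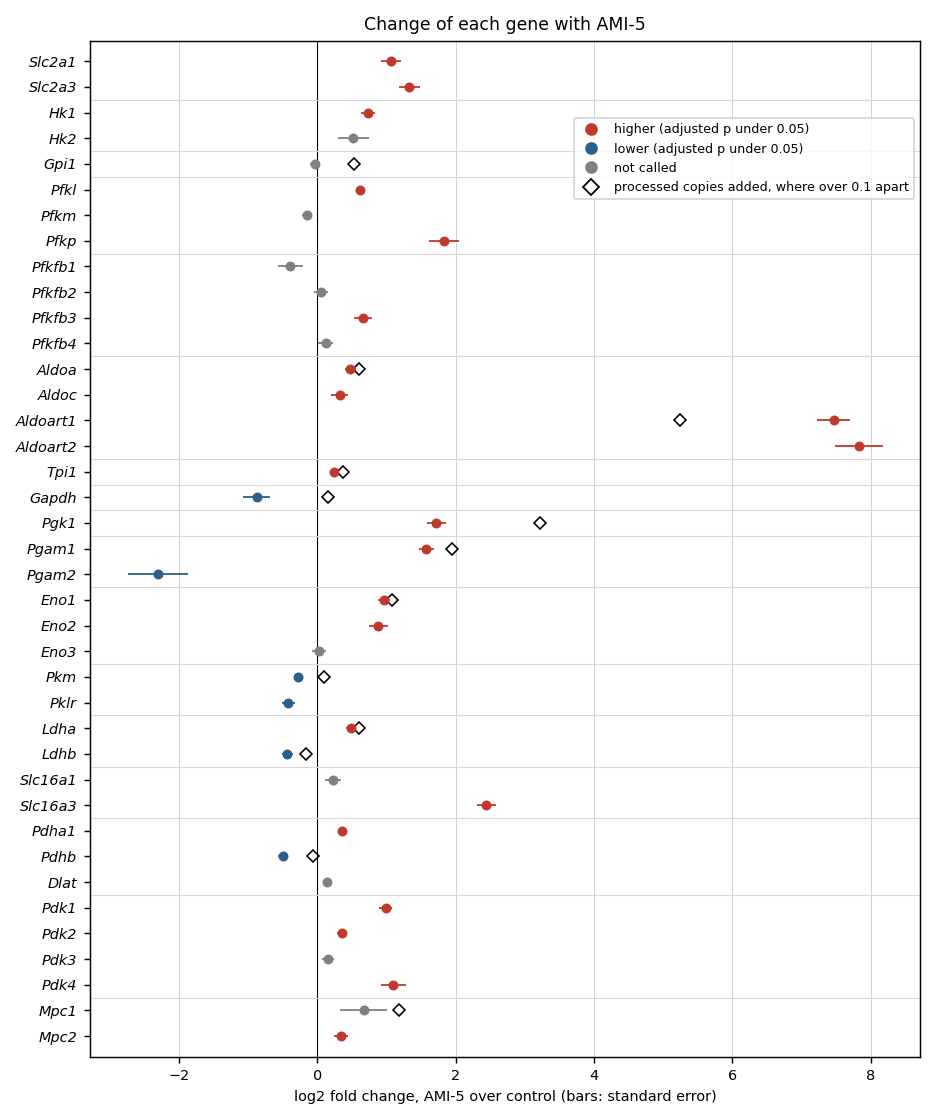
Log2 fold change (AMI-5 over control) of each of the 39 genes with its standard error, ordered by step, red where higher, blue where lower and grey where not past the threshold; diamonds give the value after the reads of aligned processed pseudogenes were added, where that moved it by more than 0.1. Most points lie right of 0, the diamonds of Gapdh, Gpi1 and Pkm lie on the other side of 0 from their points, and that of Aldoart1 stands at 5.24.

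At the pyruvate step, both pyruvate kinases and Ldhb were lower with AMI-5 and Ldha was higher. Pkm, the main pyruvate kinase, had 598, 644 and 576 CPM in AMI-5 libraries, against 735, 725 and 748 CPM in control libraries. All AMI-5 libraries were below the controls, with a log2 fold change of -0.28 ± 0.06 (SE, edgeR adjusted p = 0.00152). A processed copy of Pkm on chromosome 5, Gm6560, had 3911, 4025 and 3845 reads in AMI-5 libraries and 52, 51 and 86 reads in control libraries. With the copies added, Pkm had a log2 fold change of 0.09 and did not pass (edgeR adjusted p = 0.215). After removal of trends with GC content and length it stood at -0.0094 and did not pass either.

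Pklr, the pyruvate kinase of liver, beta cells and red cells, has little shared sequence. It had 14.0, 14.9 and 16.1 CPM in AMI-5 libraries and 19.5, 20.99 and 19.7 CPM in control libraries. The groups lay apart, and the log2 fold change of -0.42 ± 0.09 passed (SE, edgeR adjusted p = 0.00207) in the main test and in all 19 alternatives.

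Ldha, whose subunit favours lactate formation, had 377, 417 and 344 CPM in AMI-5 libraries and 274, 278 and 262 CPM in control libraries. Its log2 fold change was 0.48 ± 0.07 (SE, edgeR adjusted p = 0.000117). Ldhb, the heart-type subunit, had 24.8, 24.1 and 22.8 CPM in AMI-5 libraries, against 30.6, 31.2 and 35.1 CPM in control libraries, a log2 fold change of -0.43 ± 0.08 (SE, edgeR adjusted p = 0.000705). With the reads of its processed copy added, Ldhb stood at -0.16 and did not pass (edgeR adjusted p = 0.124).

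Of the 4 kinases that switch off pyruvate dehydrogenase, Pdk1, Pdk2 and Pdk4 were higher with AMI-5. Pdk1, a known target of hypoxia-inducible factors, had 146, 171 and 139 CPM in AMI-5 libraries, against 85.5, 74.5 and 69.8 CPM in control libraries. The log2 fold change was 0.99 ± 0.10 (SE, edgeR adjusted p = 1.21e-05). Pdk2 and Pdk4, of which Pdk4 is known to be induced by fasting, had log2 fold changes of 0.36 ± 0.07 and 1.10 ± 0.18 (SE, edgeR adjusted p = 0.000849 for Pdk2 and 0.000245 for Pdk4). Pdk4 was low, at 6.08 ± 0.695 CPM in AMI-5 and 2.83 ± 0.377 CPM in control libraries (SD, n = 3 each), and Pdk3 did not pass (0.15 on the log2 scale).

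The subunits of the pyruvate dehydrogenase complex did not move together. Pdha1, the alpha subunit of its first enzyme, had 180.4, 171 and 166 CPM in AMI-5 libraries and 140.0, 136 and 128 CPM in control libraries, a log2 fold change of 0.36 ± 0.06 (SE, edgeR adjusted p = 0.000268). Pdhb, the beta subunit of the same enzyme, had 55.6, 47.9 and 47.4 CPM in AMI-5 libraries, against 72.6, 72.7 and 68.7 CPM in control libraries, a log2 fold change of -0.50 ± 0.07 (SE, edgeR adjusted p = 8.84e-05). A processed copy held 25.5% to 28.8% of the reads of Pdhb and copy together in AMI-5 libraries and 1.48% to 2.48% in control libraries, and with it added Pdhb stood at -0.06 and did not pass (edgeR adjusted p = 0.449). Dlat, the acetyltransferase of the complex, averaged 58.0 ± 2.30 CPM in AMI-5 and 52.6 ± 1.82 CPM in control libraries (SD, n = 3 each) and did not pass at 0.14 on the log2 scale, but did at 0.20 without AMI-5 replicate 2.

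The mitochondrial pyruvate carrier is a pair of subunits. Mpc2 had 39.3, 35.2 and 32.4 CPM in AMI-5 libraries and 31.9, 27.5 and 25.2 CPM in control libraries. Its log2 fold change of 0.34 ± 0.10 passed (SE, edgeR adjusted p = 0.0132), though not without control replicate 2 (0.32) or control replicate 3 (0.26), nor at 0.19 after removal of trends with GC content and length (edgeR adjusted p = 0.154). Mpc1 was listed at 1.75, 2.45 and 1.90 CPM in AMI-5 libraries and 1.32, 1.89 and 0.606 CPM in control libraries and did not pass at 0.67, but did at 1.07 without control replicate 2. A processed copy held 73.2% to 83.3% of the reads of Mpc1 and copy together in AMI-5 libraries and 64.4% to 81.0% in control libraries. With the copies added, Mpc1 passed at 1.18 (edgeR adjusted p = 9.12e-05).

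Within a library, the share of each isozyme in its group needs no scaling between libraries. Shares were taken of reads per kilobase in 11 isozyme groups, and 20 of the 28 shares did not overlap between AMI-5 and control libraries, spread over 8 groups. In CPM, the groups did not overlap with AMI-5 above in 31.3% and with AMI-5 below in 30.6% of all genes tested, so the number of such shares is close to that background. An exact two-sided permutation test of 3 against 3 cannot go below p = 0.1, which these 20 shares reached, and 0.14 after Benjamini-Hochberg adjustment over the 28 shares, so none passes 0.05. The shares in groups of a pair mirror each other.

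Slc16a3 made up 60.28% ± 1.84 of the lactate transporter pair in AMI-5 libraries and 24.69% ± 1.95 in control libraries (SD, n = 3 each), so the leading transporter differed between the groups. Ldha made up 88.23% ± 0.80 of its pair in AMI-5 and 79.92% ± 1.68 in control libraries (SD, n = 3 each), and with the reads of processed copies added the difference of 8.31 percentage points narrowed to 6.32, and to 4.70 without division by length. Among phosphofructokinase subunits the muscle type made up 19.8% in AMI-5 and 30.7% in control libraries, the platelet type 6.87% in AMI-5 and 2.72% in control libraries, and the liver type led in both. The liver type's share was higher by 6.68 percentage points in AMI-5 libraries, but by 0.78 without division by length. Pfkfb3 made up 57.8% of the Pfkfb group in AMI-5 and 46.7% in control libraries. Pdk1 made up 42.0% of the kinase group in AMI-5 and 31.2% in control libraries, where Pdk2 led with 37.4%. Pgam1 made up 95.2% ± 1.55 of the mutase pair in AMI-5 and 59.2% ± 15.8 in control libraries (SD, n = 3 each), with a wide spread among the controls. Reads of the processed copies of Pgam1 were not included in that share. Eno3 made up 18.8% of the enolases in AMI-5 and 30.3% in control libraries. The share of Eno1 was higher by 8.85 percentage points in AMI-5 libraries, and by 5.11 without division by length. The pairs Hk1 with Hk2, Aldoa with Aldoc and Pkm with Pklr overlapped between the groups.

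**Figure D3:**
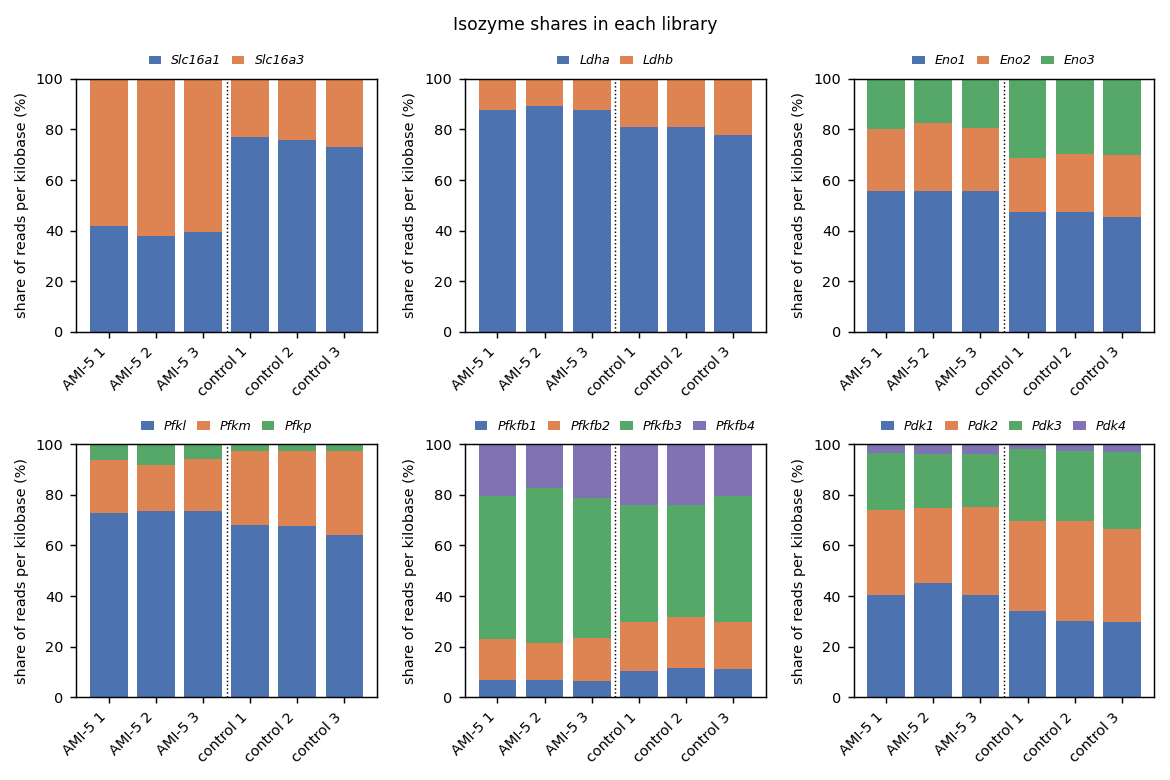
Share of each isozyme in the reads per kilobase of its group, in percent, for 6 isozyme groups; each bar is 1 library, AMI-5 libraries left of the dotted line and control libraries right of it. Slc16a3 takes 58.3% to 61.9% of the lactate transporter bar in AMI-5 libraries and 23.1% to 26.9% in control libraries.

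Processed copies of the glycolytic genes were counted more often in AMI-5 libraries as a class. Alignment placed 381 processed pseudogenes on 14 of the genes, 315 of them on Gapdh, and 303 had reads. Together they held 661, 734 and 602 CPM of all counts in AMI-5 libraries and 157, 151 and 159 CPM of all counts in control libraries. The rate was higher in every AMI-5 library for 106 of them and in every control library for 9, and 149 had reads in AMI-5 libraries and none in the controls. The control libraries were less deep and many copies had only a few reads. The part of depth in the 149 was not tested. The copies did not move in 1 proportion to their parent genes: copies held 63.7% to 64.9% of the reads of Pgk1 and copies in AMI-5 libraries and 0% to 0.73% in control libraries, whereas for Eno1 they held 25.1% to 26.0% in AMI-5 and 18.8% to 20.6% in control libraries.

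The copy of Gpi1 on chromosome 8, Gm1840, is 97.68% identical to it and had 3521, 3690 and 3401 reads in AMI-5 libraries, against 308, 312 and 252 reads in control libraries. Gpi1 itself stood at -0.04 ± 0.07 on the log2 scale (SE, edgeR adjusted p = 0.658), and at 0.53 with the copies added (edgeR adjusted p = 2.29e-05). With the aligned copies added, 24 of the 39 genes were higher and 2 lower. In these genes, the amount of mRNA from the parent gene and from its copies cannot be told apart by the counts alone.

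**Figure D4:**
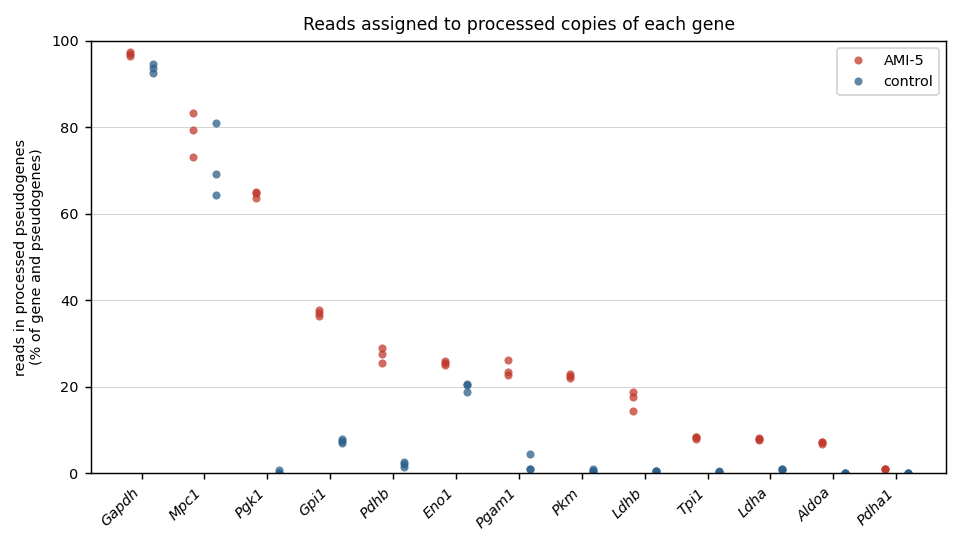
Percent of the reads of a gene and its aligned processed pseudogenes together that were counted on the pseudogenes, for 13 genes with such copies, with AMI-5 libraries in red and control libraries in blue. Pgk1, Gpi1, Pdhb and Pkm have far larger percentages in AMI-5 than in control libraries, while Gapdh lies above 90% in all 6 libraries.

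The treated libraries also differed among themselves. AMI-5 replicate 2 was the highest of its group in 28 of the 39 genes and in 19 of the 22 that were higher with AMI-5 (86.4%), while over all genes higher with AMI-5 it was the highest in 34.7%. Beside this, the summed level of 9 erythroid markers was 95.7, 244 and 81.2 CPM in AMI-5 libraries and 22.1, 16.3 and 39.3 CPM in control libraries, and that of 5 endothelial markers 338, 475 and 333 CPM in AMI-5 libraries and 423, 408 and 500 CPM in control libraries. Of the 7 erythroid markers tested, 5 were higher with AMI-5, 4 of them globin genes that share over 50% of their 50-base words, and the embryonic globins Hba-x and Hbb-y were lower. The part of these cells in the values of AMI-5 replicate 2 was not tested. Without that library, 23 of the 39 genes were higher and 6 lower.

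Calls in neighbouring pathways were close to balanced between the directions. Of 56 genes of gluconeogenesis, the pentose phosphate pathway, glycogen and related steps, 49 were tested. Of these, 15 had higher and 13 lower levels after AMI-5, at a median log2 fold change of 0.01. Over all genes tested, 27.5% were higher and 26.6% lower, so these counts are near that background. Ugp2, Gys1 and Gbe1, which act in glycogen synthesis, were higher. Of the genes of glycogen breakdown, Pygl was higher at 1.13 on the log2 scale (edgeR adjusted p = 7.53e-05). Pygb was lower at -0.31 (edgeR adjusted p = 0.000438). Ugp2, which makes UDP-glucose, averaged 68.7 ± 3.59 CPM in AMI-5 and 43.0 ± 1.55 CPM in control libraries (SD, n = 3 each). Gys1, glycogen synthase, averaged 63.1 ± 6.63 CPM in AMI-5 and 37.5 ± 3.37 CPM in control libraries, and Gbe1, the branching enzyme, 22.6 ± 2.75 CPM in AMI-5 and 12.8 ± 0.257 CPM in control libraries (SD, n = 3 each). Pgd of the pentose phosphate pathway was lower, at 129 ± 6.80 CPM in AMI-5 and 193 ± 3.25 CPM in control libraries (SD, n = 3 each). Across Ugp2, Gys1, Gbe1 and Pgd the adjusted p was at most 3.82e-05, for Gbe1 (edgeR). Among the other pentose phosphate genes, G6pdx, Pgls, Rpia and Taldo1 were also lower, and Rpe was higher. Bsg, the chaperone that lactate transporters need to reach the membrane, was higher at 649 ± 43.0 CPM in AMI-5 and 513 ± 28.4 CPM in control libraries (SD, n = 3 each, edgeR adjusted p = 0.000966), and Tkt, transketolase, was lower at 318 ± 12.8 CPM in AMI-5 and 380.4 ± 20.3 CPM in control libraries (SD, n = 3 each, edgeR adjusted p = 0.00303). Got2, the mitochondrial aspartate aminotransferase, was lower by -0.54 on the log2 scale but shares 16.8% of its 50-base words.

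All 22 regulators of the pathway were tested. After AMI-5, 7 had higher and 7 lower levels, at a median log2 fold change of -0.07. Over all genes tested, 27.5% were higher and 26.6% lower. Txnip, which limits glucose uptake and is induced by glucose, averaged 754 ± 7.92 CPM in AMI-5 and 496 ± 30.7 CPM in control libraries (SD, n = 3 each). Mlxipl, which encodes the glucose-responsive factor ChREBP, a known activator of Txnip and Pklr, averaged 49.4 ± 2.60 CPM in AMI-5 and 96.2 ± 13.9 CPM in control libraries, the opposite direction to Txnip (SD, n = 3 each). Trp53 averaged 104 ± 5.77 CPM in AMI-5 and 172 ± 8.48 CPM in control libraries (SD, n = 3 each). Egln1, an oxygen sensor that marks hypoxia-inducible factors for breakdown and is itself their target, averaged 90.4 ± 11.1 CPM in AMI-5 and 54.2 ± 1.84 CPM in control libraries, and Egln2, a related enzyme, 85.0 ± 3.52 CPM in AMI-5 and 114 ± 6.71 CPM in control libraries (SD, n = 3 each). Esrra, a factor of oxidative metabolism, averaged 23.7 ± 0.386 CPM in AMI-5 and 34.5 ± 1.45 CPM in control libraries (SD, n = 3 each). All 6 passed, with adjusted p of at most 0.000132 for Egln2 (edgeR). Egln3 and Hif1a are given in addition, chosen after their values were seen. Egln3, another such sensor, averaged 54.5 ± 16.5 CPM in AMI-5 and 17.5 ± 1.87 CPM in control libraries (SD, n = 3 each, edgeR adjusted p = 0.00393), and Hif1a 137 ± 6.29 CPM in AMI-5 and 112 ± 3.70 CPM in control libraries (SD, n = 3 each, edgeR adjusted p = 0.00124). The remaining called regulators went both ways, given here as log2 fold change and edgeR adjusted p. Mycn (-0.58, adjusted p = 0.000567), Myc (-0.35, adjusted p = 0.00457) and Mlxip (-0.28, adjusted p = 0.00408) were lower with AMI-5. Prkaa1 (0.35, adjusted p = 0.000452), Prkaa2 (0.69, adjusted p = 0.00514) and Vhl (0.29, adjusted p = 0.0019) were higher. The part of any regulator in the glycolytic results was not tested.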

How the data were processed

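The 39 genes and the other lists were chosen with earlier results of these data known. The deposited table holds read counts per gene, not normalized by the authors, and a deposited gene length (other unit: bases of merged exons). The submitters' processing notes name mm10 as the build and list featureCounts 1.6.2, GSNAP 2018-05-30 and bcl2fastq 2.19.1. The table's name gives annotation release 87. No source used here gives the strand setting or the handling of reads with several matching places. The 92 spike-in entries held 1 read and were left out. Symbols and sequences came from GENCODE M21. For growth and treatment the labels point to papers, which were not used.

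The test over the 17519 genes that filterByExpr kept was run with edgeR 4.0.16 under R 4.3.3 (TMM, robust quasi-likelihood F test, group as the only term, two-sided, Benjamini-Hochberg adjusted p under 0.05). The common biological coefficient of variation was 9.65%. DESeq2 1.42.0 and limma 3.58.1 (voom) served as alternatives. Totals of 12445425 to 24805188 counts per library set the precision, which is lowest in the controls. No pair of libraries within a group agreed within counting error (chi-square divided by its degrees of freedom 7.23 to 17.5), and each library counts as 1 sample.

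Near copies were found as shared 50-mers (at least 20% of a processed pseudogene's words) and, added after seeing the data, with blastn 2.17.0 (at least 80% identity over at least 50% of the copy). Isozyme shares used scipy 1.17.1. Proteins were not used here, so identity was computed on coding sequences.

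Values in all libraries are given for the called genes with the 12 largest changes at a mean of at least 5 CPM, the most abundant gene of each step or isozyme group, and every gene called lower. In the pathway and regulator lists, up to 6 called genes with the smallest p and the 2 with the largest mean are named. The remaining called regulators, Pygl, Pygb and further called pentose phosphate genes are given in addition. Not every gene that this rule takes is not reported here.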

Additional observations from a re-analysis of the deposited data

How the results depend on the processing

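Over 19 alternatives and 727 values of single genes, 677 kept direction and side of the threshold, 16 lost the call, 20 gained it and 14 changed sign. Of the 28 called genes, 21 kept call and sign in every alternative run, 19 of them higher. Between 18 and 24 of the genes were higher; leaving out 1 library gave 20 to 24 higher and 6 lower each time. Restricted to protein-coding genes with little shared sequence, 2 of the 25 genes tested were lower, 2984 of all genes were higher and 8 of the neighbouring pathway genes were lower; with copies added by either rule, 2 of the 39 were lower, since the reads of the copies were then counted with the gene. Signs changed as follows. With copies added by alignment and by shared 50-mers, Gapdh stood at 0.149 and 0.0113, Gpi1 at 0.528 and 0.517 and Pkm at 0.0893 and 0.0717. Gpi1 also stood at 0.0814 with GC and length trends removed, 0.0176 with processed pseudogenes left out, 0.0279 without AMI-5 replicate 3 (from -0.0823 to 0.0279 over the libraries left out) and 0.0088 with upper-quartile scaling. Pfkfb2 stood at -0.0131 with trends removed, -0.0079 without control replicate 1 (from -0.0079 to 0.1082 over the libraries left out) and -0.0402 with library totals alone, where Eno3 stood at -0.069. Apart from the sums with copies, the cause of these changes was not tested. Higher calls were 57.0% of the calls over all genes with upper-quartile scaling and 57.5% with no filter, against 50.9% in the main test. The median of all genes shifted to 0.145 with no filter. DESeq2 gave 23 higher and 6 lower, voom 21 and 6. Of 88 isozyme share differences recomputed, 83 stayed within 1 SD, 5 moved and none changed sign: without division by length Pfkl stood at 0.78, Eno1 at 5.11 and Ldha at 4.70 points, and with copies added by shared 50-mers Ldha at 6.32 and Pkm at 1.12.

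Replicate numbers did not pair the samples: same-numbered libraries correlated at -0.0579, -0.0377 and -0.048. With the replicate block, 24 of the genes were higher and 6 lower (4704 and 4482 over all genes), and Hk2 (0.49) and Slc16a1 (0.22) gained a call.

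Depth limits the low genes most, among them Gapdh, Pgam2 and Mpc1 and the retrogenes in control libraries.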
